A study of Ovis aries with 40 samples.

Results

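Translation initiation and elongation factors are the proteins that load ribosomes onto mRNA and carry them along it. The genes described here are all those on the bovine expression array whose symbol starts with EIF or EEF followed by a digit, which gave 50 genes (40 EIF and 10 EEF) of 9155 genes with a probe set of 1 symbol. A gene with several probe sets was represented by the one whose signal averaged highest over the animals. Of the 50 genes, 45 reached the minimum mean signal of 61.7625, as 6360 of all 9155 genes did. The 5 below it were EIF2A, EIF2AK2, EIF2AK3, EEF1AKMT3 and EEF2KMT, with mean signals from 28.04 (EEF2KMT) to 60.17 (EIF2AK2), and they entered no test. The genes were chosen by name. Measured signals entered into the choice among probe sets and into the minimum that kept these 5 genes out of the tests.

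RNA came from the longissimus dorsi, the long muscle of the back, of 40 Poll Dorset sheep aged 78 weeks, with 1 array per animal. The high muscling group held 19 animals, made up of sires 11 (8 progeny), 2 (7 progeny) and 7 (4 progeny). The low muscling group held 21 animals, made up of sires 17 (5 progeny), 16 (8 progeny) and 5 (8 progeny). High and low refer to the class of estimated breeding value for eye muscle depth given to the animals, which were reared alike under industry conditions with no treatment named. Each of the 6 sires had progeny in 1 group only, so that a difference between the muscling groups and a difference between 3 sires and 3 other sires cannot be told apart. The array carries bovine probes, so a signal also depends on how well a probe matches the sheep transcript.

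In initiation, eIF2 brings the initiator tRNA to the small ribosomal subunit, eIF1, eIF1A and eIF5 guide scanning and the choice of the start codon, eIF3 is the large scaffold on the small subunit, and the eIF4 proteins bind the mRNA cap and unwind the 5′ end. eIF2B recharges eIF2 with GTP, and phosphorylation of eIF2 by its kinases slows this step in stressed cells. In elongation, eEF1A delivers aminoacyl-tRNAs, the eEF1B subunits recharge eEF1A, and eEF2 moves the ribosome by a codon. In skeletal muscle, insulin, amino acids and loading act on these steps through mTORC1, which releases eIF4E from its inhibitor 4E-BP1, and through eEF2 kinase, which inhibits eEF2.

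The arrays were alike in scale, with median signals from 56.1 to 67.0 and correlations between arrays of 0.902 to 0.963. The first principal component of all detected genes held 14.5% of the variance, and sire accounted for a share of 0.814 of it. All 8 measured markers of muscle fibres were detected, with a summed signal of 162638.7 to 225376.1 in high muscling and 160653.4 to 221820.6 in low muscling animals. The labels give no sex, and XIST, the RNA of the inactive X chromosome, had signals of 528 or more in 19 animals and of 80 or less in the other 21. The higher signals were found in 10 of 19 high muscling and 9 of 21 low muscling animals, and in 2 (sire 16) to 4 progeny of each sire.

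In high muscling animals 13 of the 45 detected translation factors differed from low muscling animals, 4 higher and 9 lower (limma with sire as a random block, Benjamini-Hochberg adjusted p below 0.05 over all 6360 genes). This was 28.9% of the factors, against 7.78% of all genes called (2.28% higher and 5.5% lower). The scaffold EIF4G1, its relative EIF4G3, EIF3A and the kinase EEF2K were higher, and EEF1B2, EIF4A1, EIF1AX, EIF6, EIF1AD, EIF4A3, EIF2S1, EIF1B and EIF3E were lower. The differences were modest, from -0.62 to 0.52 on the log2 scale, and in every one of the 13 genes the ranges of the 2 groups overlapped. Over all 45 factors the median difference was -0.07, with 14 positive and 31 negative, and over all genes it was -0.04. Because whole muscle was measured, a lower amount of RNA per cell and a lower share of the cells that hold it cannot be told apart.

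**Figure D1:**
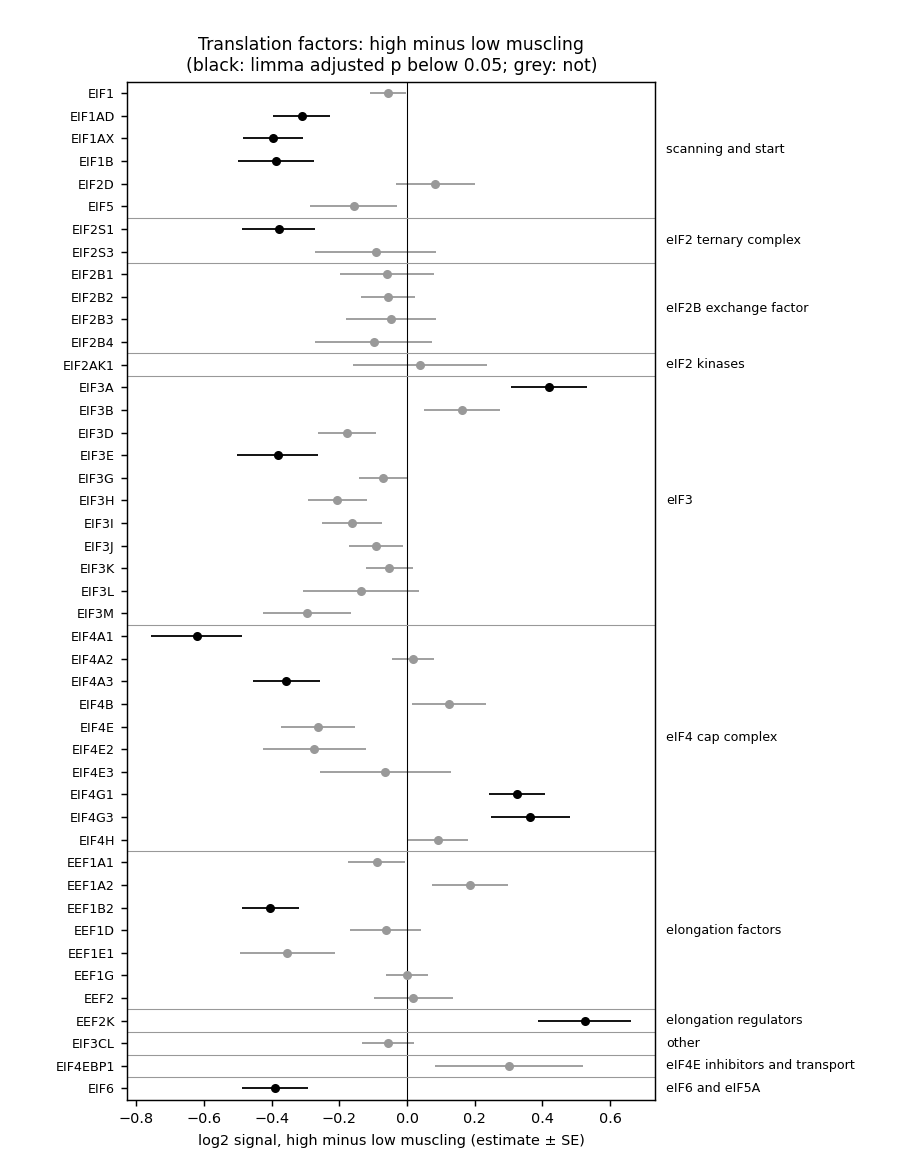
Difference in log2 signal between high and low muscling animals (horizontal axis, estimate with its standard error as a bar) for the 45 detected translation factors, grouped by role from top to bottom. The 13 black points passed the adjusted threshold, 9 of them left of 0 (EIF4A1 farthest, at -0.62) and 4 right of it (EEF2K farthest, at 0.52).

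Of the 6 detected factors grouped here under scanning and start codon choice, 3 (50%) were lower in high muscling animals, against 5.5% of all genes, and none was higher. EIF1AX, the eIF1A protein that opens the small subunit for scanning, had a lowest, median and highest signal of 2617.4, 3504.7 and 4507.0 in high muscling and of 3196.9, 4656.5 and 5927.5 in low muscling animals. All 3 values were lower in high muscling, with a difference of -0.40 ± 0.09 (SE; adjusted p = 0.00488). EIF1AX, whose human namesake lies on the X chromosome, was called to the same extent with XIST as a covariate (-0.40, adjusted p = 0.00542). That covariate was fitted for all genes and chosen after seeing the data. EIF1AD, which is counted in this group but is known here only as a carrier of an eIF1A-like domain, had signals of 267.7, 325.9 and 412.6 in high muscling. In low muscling animals they were 329.4, 387.6 and 514.8, a difference of -0.31 ± 0.08 (adjusted p = 0.0168). EIF1B, a close copy of EIF1, had signals of 390.2, 560.6 and 837.3 in high muscling and 483.9, 746.8 and 1010.8 in low muscling animals, a difference of -0.39 ± 0.11 (adjusted p = 0.0274). EIF1 itself, which guards the accuracy of start codon choice, did not pass the test (-0.06 ± 0.05, adjusted p = 0.59). Nor did EIF5, which makes eIF2 hydrolyse its GTP (-0.16 ± 0.13, adjusted p = 0.519), or EIF2D, an alternative carrier of tRNA (0.08 ± 0.12, adjusted p = 0.742).

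Of the 2 detected subunits of eIF2, EIF2S1 was lower in high muscling animals. EIF2S1 encodes the alpha subunit, on which the stress kinases act. Its lowest, median and highest signals were 856.8, 1180.7 and 1534.8 in high muscling and 1057.7, 1551.0 and 2174.5 in low muscling animals, a difference of -0.38 ± 0.11 (adjusted p = 0.023). EIF2S3, the gamma subunit that binds GTP, had a difference of -0.09 ± 0.18 (adjusted p = 0.832). None of the 4 detected eIF2B subunits (EIF2B1, EIF2B2, EIF2B3 and EIF2B4) was called, with differences from -0.10 (EIF2B4) to -0.05 (EIF2B3) and adjusted p from 0.747 to 0.887. The 1 detected kinase of eIF2, the haem-regulated EIF2AK1, had a difference of 0.04 ± 0.20 (adjusted p = 0.943).

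Of the 11 detected eIF3 subunits, 1 was higher and 1 lower in high muscling animals (18.2% together, against 7.78% of all genes). EIF3A, the largest subunit and the one that the rest of the complex is built on, had a lowest, median and highest signal of 1736.7, 2461.0 and 2920.4 in high muscling and of 1197.4, 1785.5 and 2623.9 in low muscling animals. It was higher in high muscling by 0.42 ± 0.11 (adjusted p = 0.0167). EIF3E, another subunit, had signals of 2299.6, 3255.5 and 4439.4 in high muscling and 2731.9, 4424.4 and 5921.4 in low muscling animals. It was lower in high muscling (-0.38 ± 0.12, adjusted p = 0.0416). EIF3E was not called with quantile normalization (-0.30, adjusted p = 0.103), after median centring (-0.35, adjusted p = 0.0584), with the stricter signal minimum (-0.38, adjusted p = 0.0511) or with the spiked controls as covariate (-0.34, adjusted p = 0.134). The other 9 subunits were not called. Their differences ran from -0.30 (EIF3M, adjusted p = 0.166) over -0.21 (EIF3H, adjusted p = 0.145) to 0.16 (EIF3B, adjusted p = 0.429). EIF3CL, a symbol for a copy of EIF3C, had a difference of -0.06 ± 0.08 (adjusted p = 0.732).

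Among the 10 detected factors grouped here with the cap-binding complex, EIF4A3 included, 2 were higher and 2 lower in high muscling animals (40% together, against 7.78% of all genes). EIF4G1, the scaffold that joins the cap-binding protein, the helicase and eIF3, had signals of 1127.8, 1343.3 and 1588.5 (lowest, median and highest) in high muscling and 840.9, 1055.8 and 1675.1 in low muscling animals. The highest single value lay in the low muscling group, but the median was higher in high muscling, with a difference of 0.33 ± 0.08 (adjusted p = 0.0125). EIF4G3, a second scaffold of the same family, had signals of 643.6, 831 and 1159.4 in high muscling and 406.2, 573.9 and 1070.9 in low muscling animals, a difference of 0.36 ± 0.12 (adjusted p = 0.0454). This call was lost with the stricter signal minimum (0.36, adjusted p = 0.0578) and the spiked controls (0.33, adjusted p = 0.133), and stood in 1 of the 6 fits that left out a sire. EIF4A1, a helicase that unwinds the 5′ end of the mRNA, showed the largest difference of the 45 factors. Its signals were 248.2, 412.8 and 534.6 in high muscling and 355.2, 609.3 and 1106.4 in low muscling animals, a difference of -0.62 ± 0.13 (adjusted p = 0.00359) or 0.650-fold. EIF4A2, the close copy of EIF4A1, did not pass the test (0.02 ± 0.06, adjusted p = 0.91). EIF4A3, the relative that sits in the exon junction complex, had signals of 509.9, 692.8 and 856.7 in high muscling and 679, 843.9 and 1252.5 in low muscling animals, a difference of -0.36 ± 0.10 (adjusted p = 0.0193).

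The cap-binding protein itself, EIF4E, had a lowest, median and highest signal of 762.9, 1059.8 and 1393.9 in high muscling and 986.4, 1208.2 and 2075.9 in low muscling animals. Its difference of -0.26 ± 0.11 did not pass the adjusted threshold (adjusted p = 0.138). EIF4E2, EIF4E3, EIF4B and EIF4H were not called either, with differences of -0.27, -0.06, 0.12 and 0.09. EIF4EBP1, the inhibitor 4E-BP1, was the factor that varied most among animals, with an SD of 0.533 in log2 signal. Its signals were 254.6, 353.7 and 1338.1 in high muscling and 253.3, 334.6 and 551.9 in low muscling animals. The lowest and median values were close in both groups and the highest value, found among the progeny of sire 11, was not, and the difference did not pass the test (0.30 ± 0.22, adjusted p = 0.453).

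EIF6, which keeps the large ribosomal subunit from joining too early and also acts in its assembly, was lower in high muscling animals. Its signals were 707.3, 897 and 1123.8 in high muscling and 927.9, 1152.6 and 1546.4 in low muscling animals, with a difference of -0.39 ± 0.10 (adjusted p = 0.0105).

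Of the 7 genes grouped here as elongation factors, EEF1E1 included, 1 was called (14.3%, against 7.78% of all genes). EEF1B2, a subunit of the complex that recharges eEF1A, had the smallest p of the 45 factors in this comparison. Its lowest, median and highest signals were 6153.0, 7237.5 and 8327.6 in high muscling and 6901.1, 9849.8 and 12454.9 in low muscling animals, a difference of -0.40 ± 0.08 (adjusted p = 0.00267). With the sire means as samples, limma gave EEF1B2 an adjusted p of 0.356. The other subunits of that complex did not pass the test, with differences of -0.06 ± 0.10 for EEF1D and 0.00 ± 0.06 for EEF1G (adjusted p = 0.796 and 0.996). EEF1A1, the widely expressed eEF1A, had a difference of -0.09 ± 0.08 (adjusted p = 0.59), and EEF1A2, the form that adult muscle and neurons use, of 0.19 ± 0.11 (adjusted p = 0.349). EEF2, the translocation factor, had a difference of 0.02 ± 0.12 (adjusted p = 0.955). EEF1E1, which belongs to the multi-synthetase complex, had a difference of -0.35 ± 0.14 (adjusted p = 0.116).

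EEF2K, the kinase that inhibits eEF2, showed the largest positive difference. Its lowest, median and highest signals were 204.6, 270.6 and 410.1 in high muscling and 121.9, 184.6 and 346.9 in low muscling animals. The difference was 0.52 ± 0.14 (adjusted p = 0.0138), or 1.44-fold. EEF2, its substrate, had a lowest, median and highest signal of 3430.5, 5213.7 and 6670.4 in high muscling and 3145.0, 5046.6 and 5903.6 in low muscling animals, so that the 2 groups covered nearly the same range.

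**Figure D2:**
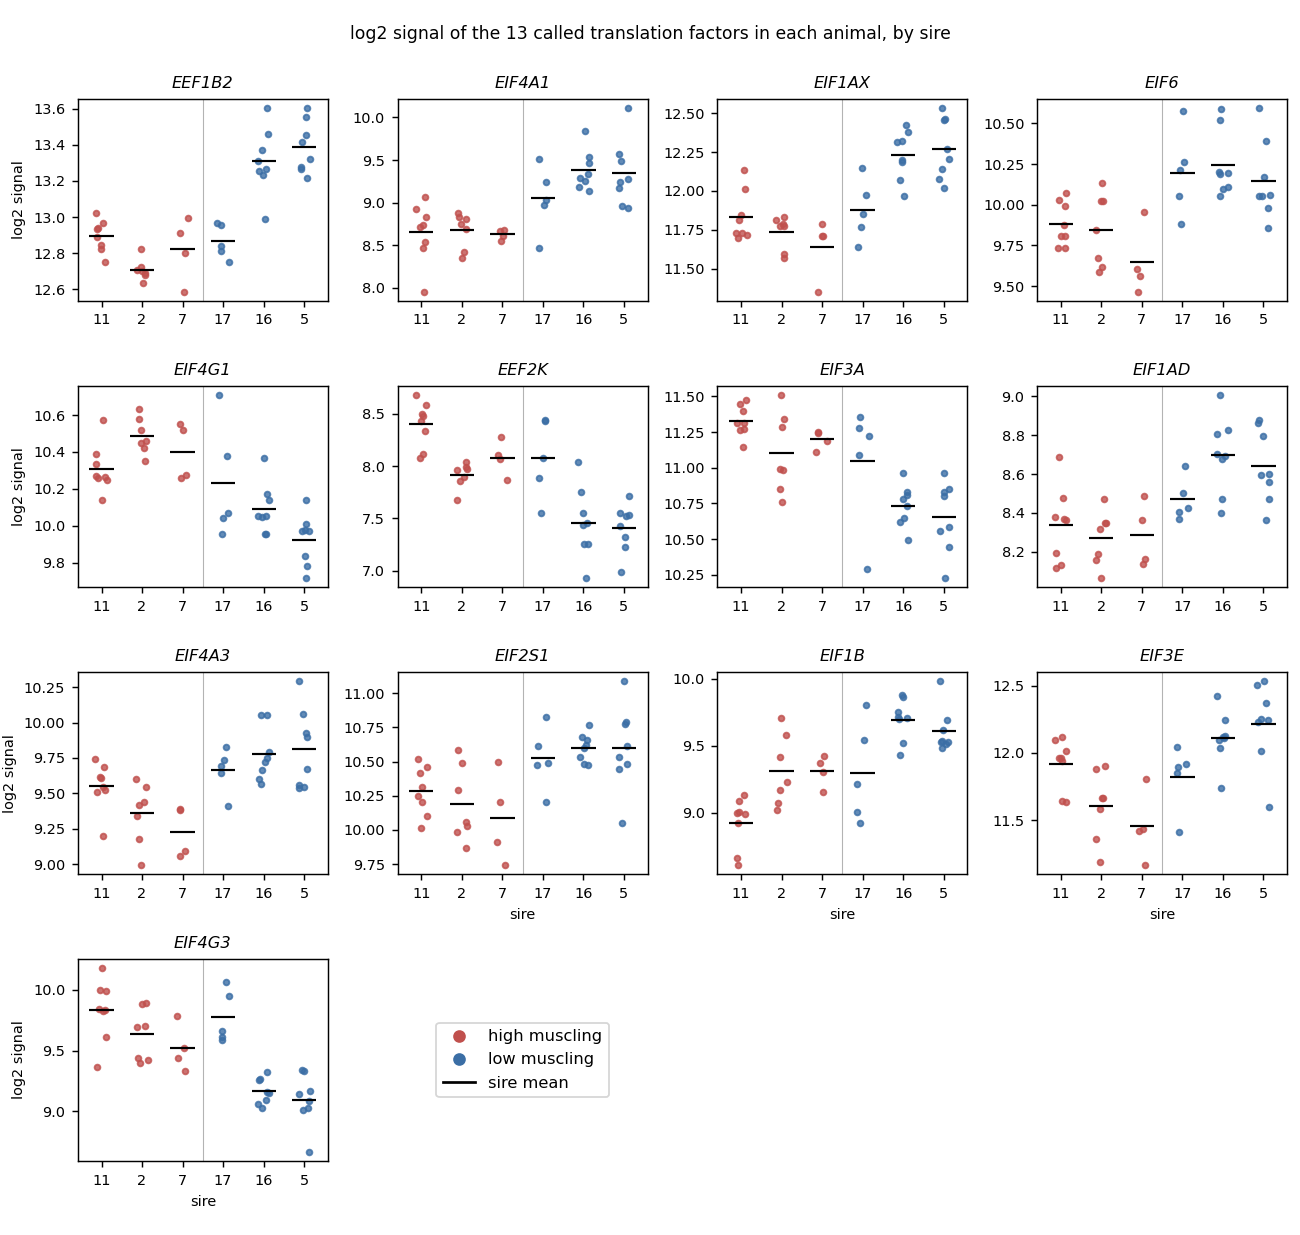
log2 signal of each of the 40 animals (points) in the 13 called translation factors, by sire on the horizontal axis, with the mean of each sire as a bar; sires 11, 2 and 7 are the high muscling group and sires 17, 16 and 5 the low muscling group. For EEF1B2 the progeny of sire 17 lie with the high muscling sires (mean 12.865) and apart from sires 16 and 5 (13.312 and 13.389), while for EIF6 all 3 low muscling means (10.197, 10.245 and 10.145) lie above the 3 high muscling means.

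Sires were the units that carried the muscling contrast, so the means of the 6 sires were set side by side. In 11 of the 45 factors the 3 sire means of one group lay wholly beyond the 3 of the other, against 19.3% of all genes (7.85% higher and 11.4% lower in high muscling). EIF3A and EIF4G1 were separated upwards in high muscling, and EEF1E1, EIF1AD, EIF1AX, EIF2S1, EIF3D, EIF3L, EIF4A1, EIF4A3 and EIF6 downwards. Some separations were narrow. The nearest means were 10.586 (sire 2) and 10.593 (sire 5) for EIF3L, and 10.141 (sire 2) and 10.183 (sire 17) for EIF3D. EIF3L, EIF3D and EEF1E1 were not called in the muscling contrast. Of the 13 called factors 8 had wholly separated sire means. In the other 5 (EEF1B2, EEF2K, EIF1B, EIF3E and EIF4G3) the mean of sire 17, a low muscling sire, lay within the range of the 3 high muscling means. For EIF4G3 the mean log2 signals were 9.830 (sire 11), 9.633 (sire 2) and 9.519 (sire 7) in high muscling, against 9.776 (sire 17), 9.166 (sire 16) and 9.096 (sire 5) in low muscling.

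Leaving out single sires changed the calls. Without sire 16 or without sire 5 no translation factor was called (0 of 45 each; 14 and 13 had an unadjusted p below 0.05), and 29 and 23 of all genes were. Without sire 7, sire 2, sire 11 and sire 17 the counts were 6, 7, 12 and 17 factors. The direction of all 13 differences was kept in each of these 6 fits. The estimates ran from 0.24 to 0.55 for EIF4G3, the widest range of the 13 relative to its size, and from -0.49 to -0.25 for EIF1B. For EIF4A1 they ran from -0.71 to -0.56, for EEF1B2 from -0.54 to -0.30, for EIF6 from -0.43 to -0.33 and for EEF2K from 0.37 to 0.71. With the 6 sire means as the only samples, limma called 0 factors (11 with an unadjusted p below 0.05) and 0 of all genes (886 with an unadjusted p below 0.05).

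**Figure D3:**
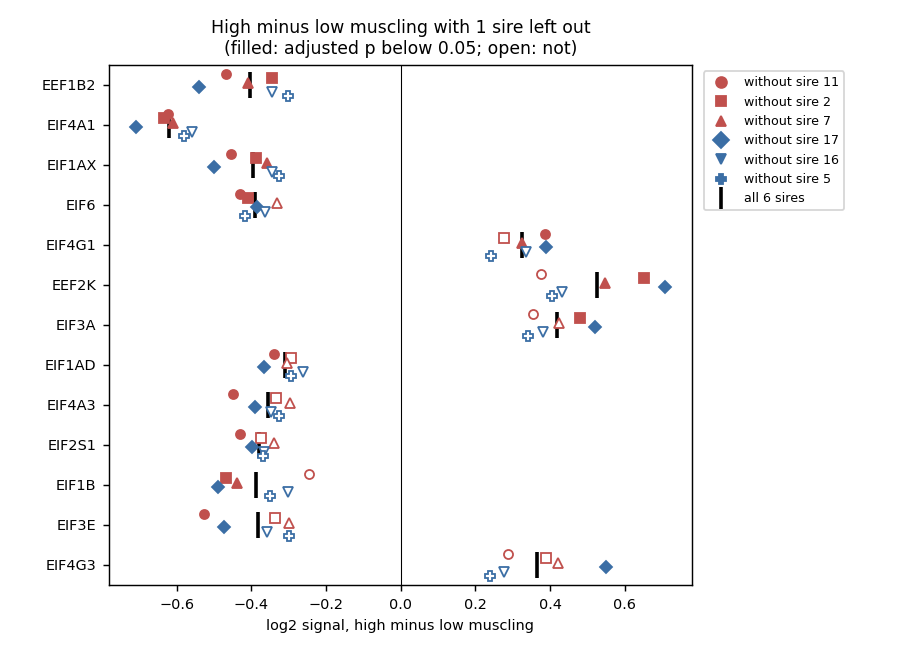
Difference in log2 signal between high and low muscling animals (horizontal axis) for the 13 called translation factors with all 6 sires (black bar) and with each sire left out in turn (symbols; filled where the adjusted p was below 0.05). All symbols of a gene lie on one side of 0, but those without sires 16 and 5 are open in every gene.

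Within the muscling groups, progeny of different sires were compared to see how far translation factors differ between families of the same group. The F test over the 4 contrasts among sires of the same group called 13 of the 45 factors, which was 28.9% against 22% of all genes, and 6 of the 13 were also called between the muscling groups. The sire means differed most clearly in EIF5 (adjusted p = 0.000118), EEF1B2 (0.000125), EIF4G3 (0.00028) and EEF2K (0.000623), followed by EEF1A1, EEF1A2, EIF1B, EIF1, EIF1AX, EIF3E, EIF4E, EIF3K and EEF1D (0.00465 to 0.0401). For EEF2K the call was lost with the mean over its probe sets (adjusted p = 0.253) and for EIF1 (0.734), EIF1AX (0.064) and EIF3K (0.11) with quantile normalization, and EEF1D was called in 24 of 40 fits without 1 animal.

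**Figure D4:**
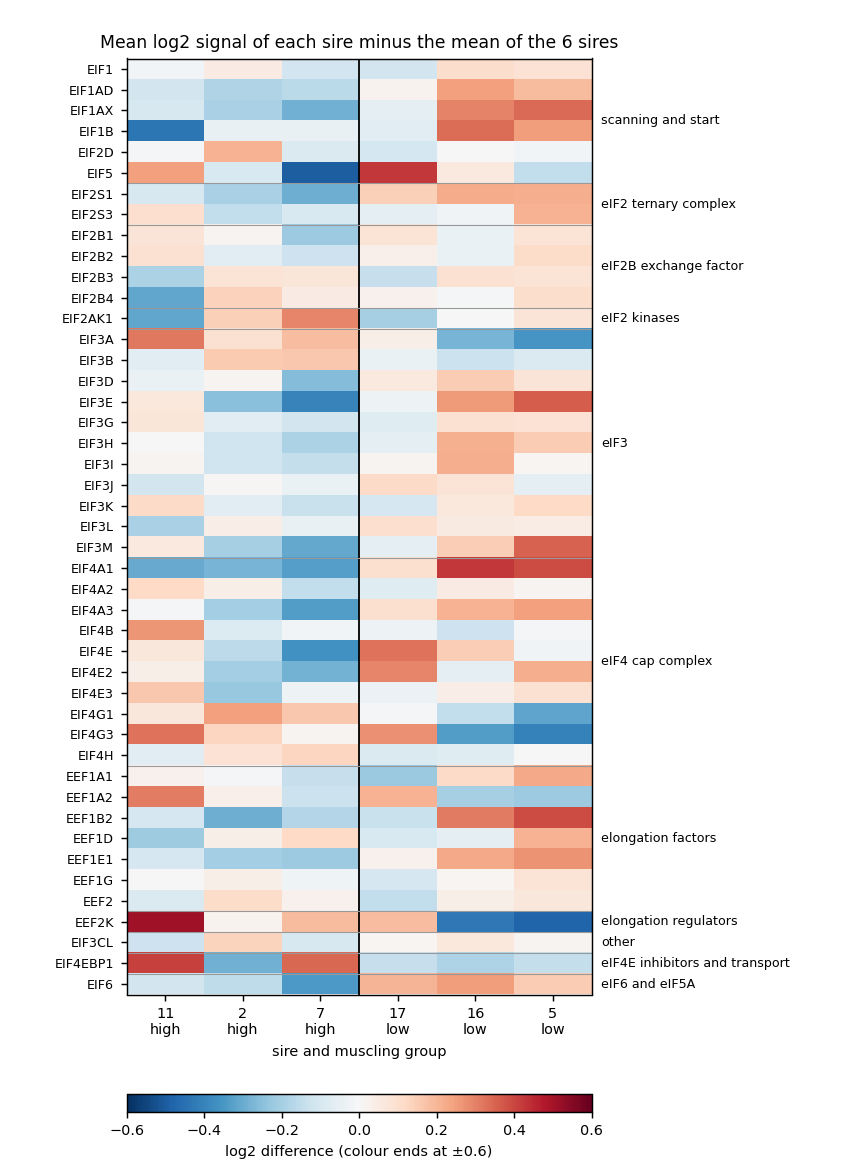
Mean log2 signal of each sire (columns, the high muscling sires 11, 2 and 7 left of the low muscling sires 17, 16 and 5) minus the mean of the 6 sires, for the 45 detected translation factors (rows, by role); red is above and blue below that mean. Sire 17 differs from sires 16 and 5 in rows such as EEF1B2 (12.865 against 13.312 and 13.389) and EIF4G3 (9.776 against 9.166 and 9.096).

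Sire 11 differed from sires 2 and 7 of its group in 10 factors, 8 higher and 2 lower, which was 22.2% of the factors against 19.6% of all genes (7.75% higher and 11.8% lower). After median centring of the arrays the split was 14 higher and 1 lower for the factors and 731 higher and 532 lower for all genes, against 493 higher and 753 lower without it. EIF5 showed the largest difference. Its lowest, median and highest signals were 8920.2, 10797.0 and 12277.6 in the progeny of sire 11, 6135.2, 9055.2 and 10865.5 in those of sire 2, and the 4 progeny of sire 7 had 5913.2, 5935.0, 6272.5 and 7831.6. Every progeny of sire 11 lay above every progeny of sire 7, and the difference was 0.54 ± 0.11 (adjusted p = 0.00046). EEF2K (0.40 ± 0.12, adjusted p = 0.0165), EIF3E (0.39 ± 0.12, 0.0154), EEF1A2 (0.36 ± 0.11, 0.0148), EIF4E (0.33 ± 0.11, 0.0266) and EIF4B, a stimulator of the helicase (0.31 ± 0.11, 0.0426), were also higher in sire 11. So were the eIF3 subunit EIF3K (0.21 ± 0.07, 0.022) and EIF4A2 (0.18 ± 0.06, 0.0333). EIF1B (-0.39 ± 0.11, 0.00829) and EEF1D (-0.29 ± 0.10, 0.0433) were lower in sire 11. Leaving out single animals ended the calls of EEF1D, EIF4B and EIF4A2 in some cases (called in 28, 29 and 33 of 40 such fits), and without progeny 27 of sire 11 the count was 6 factors. EEF1D, EIF4B and EIF4A2 were also not called without the signal minimum, EEF1D not after median centring and EIF4B not with quantile normalization. EEF2K was not called with the mean over its probe sets (adjusted p = 0.885).

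Sire 17 differed from sires 16 and 5 of its group in 10 factors as well, 5 higher and 5 lower, against 14.1% of all genes (4.37% higher and 9.7% lower). After median centring the factors split into 6 higher and 3 lower, and all genes into 333 higher and 442 lower, against 278 and 617 without it. EEF1B2 gave the smallest p. Its signals were 6901.1, 7177.0, 7342.2, 7945.0 and 7994.4 in the 5 progeny of sire 17, against 8138.3, 10005.3 and 12454.9 (lowest, median and highest) in those of sire 16 and 9529.1, 10581.0 and 12438.2 in those of sire 5. All progeny of sire 17 lay below all progeny of the other 2 sires, a difference of -0.49 ± 0.08 (adjusted p = 3.86e-05). EEF1A1 was lower in sire 17 too. Its signals were 10906.8, 11569.5, 11885.1, 12179.7 and 13711.1 in sire 17, against 13730.8, 14856.0 and 18930.4 in sire 16 and 14248.5, 16541.6 and 18987.9 in sire 5, again without overlap, and the difference was -0.40 ± 0.08 (adjusted p = 0.00118).

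EIF1 had the lowest spread of all 45 factors among animals (0.102 on the log2 scale), and its family differences were correspondingly small. Signals were 10850.0, 11624.1, 11729.6, 11786.1 and 11812.4 in sire 17, against 12300.3, 13532.1 and 14522.0 (lowest, median and highest) in sire 16 and 12504.6, 13362.3 and 14041.5 in sire 5, a difference of -0.21 ± 0.05 (adjusted p = 0.00683) that was not called with quantile normalization, median centring or the mean over probe sets. EIF1AX (-0.37 ± 0.09, adjusted p = 0.00455) and EIF1B (-0.36 ± 0.12, 0.0323) were also lower in sire 17. EIF1B was not called after leaving out progeny 71 of sire 17 (adjusted p = 0.181), after median centring or without the signal minimum.

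The factors higher in sire 17 were EIF4G3, EEF2K, EIF5, EEF1A2 and EIF3A. EIF4G3 had signals of 771.1, 782.8, 810.6, 988.2 and 1070.9 in sire 17, against 521.6, 569 and 639.8 (lowest, median and highest) in sire 16 and 406.2, 554.7 and 647.2 in sire 5, with no overlap and a difference of 0.64 ± 0.11 (adjusted p = 0.000104). EEF2K had signals of 187.6, 235.8, 270.4, 343.6 and 346.9 in sire 17, against 121.9, 174.5 and 262.1 in sire 16 and 127.1, 178.1 and 209.5 in sire 5, which overlapped, with a difference of 0.64 ± 0.13 (adjusted p = 0.000853) that was not called with the mean over probe sets (adjusted p = 0.0765). EIF5 had signals of 10319.6, 12258.4, 12370.1, 12472.7 and 13767.1 in sire 17, against 8462.3, 9203.9 and 11450.8 in sire 16 and 6110.3, 7844.2 and 10575.0 in sire 5 (0.47 ± 0.12, adjusted p = 0.00498). Sire 17 thus had the highest mean of EIF5 in low muscling and sire 11 the highest in high muscling. EEF1A2 had signals of 171.8, 201.7, 211.1, 215.6 and 248.8 in sire 17, against 122.8, 147.1 and 225.2 in sire 16 and 131.9, 152 and 196.6 in sire 5 (0.42 ± 0.11, adjusted p = 0.0104), and the 2 forms of eEF1A differed in opposite directions in this family. EIF3A was at the threshold (0.35 ± 0.12, adjusted p = 0.0495) and was called in 11 of 40 fits without 1 animal, and not without the signal minimum, with the mean over probe sets or with XIST as covariate.

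Between sires 2 and 7 limma called 0 of the 45 factors (6 with an unadjusted p below 0.05) and 0% of all genes. These sires had 7 and 4 progeny, and the SE of EIF5 was 0.14, against 0.11 in the sire 11 contrast. Between sires 16 and 5 it also called 0 factors (2 with an unadjusted p below 0.05), and 0.0314% of all genes (0.0157% in each direction). EIF5 had the smallest p of the factors between sires 2 and 7 (0.40 ± 0.14, adjusted p = 0.747), and EEF1D between sires 16 and 5 (-0.27 ± 0.11, adjusted p = 0.694). In all, 25 of the 45 factors were called neither between the muscling groups nor by the F test among sires, among them the 4 eIF2B subunits, EIF2S3, EEF2, EEF1G, EIF4EBP1 and most eIF3 subunits. The median SD among animals was 0.283 in log2 signal over the translation factors and 0.382 over all genes, without a test, and 8 of the 45 factors lay above the median of all genes. EEF1G (0.114) and EIF4A2 (0.122) followed EIF1 at the steady end, and EIF2AK1 (0.461) and EEF2K (0.449) followed EIF4EBP1 at the variable end.

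A second probe set bears on some of these genes, since it measures another stretch of the same transcript. Of 11 further probe sets above the minimum signal, 6 had the sign of the chosen one in the muscling contrast and 5 the opposite sign, and 3 correlated with it above 0.5 across animals. EIF4G3 and EIF5 had the second probe sets closest to the first. That of EIF4G3 (r = 0.857) was not called in the muscling contrast (0.46 ± 0.16, adjusted p = 0.0698). It gave 0.84 ± 0.14 for sire 17 (adjusted p = 8.17e-05) and 0.61 ± 0.13 for sire 11 (adjusted p = 0.000694), where the chosen one was not called (0.26 ± 0.10, adjusted p = 0.0713). The second probe set of EIF5 (r = 0.800) gave 0.98 ± 0.19 for sire 11 and 0.98 ± 0.21 for sire 17 (adjusted p = 0.000294 and 0.00119). EEF1A1 has a 5′ control probe set on the array, which gave -0.40 ± 0.08 for sire 17 (r = 0.882, adjusted p = 0.00117), equal to the chosen probe set. Its 3′ control probe set (r = 0.507) gave -1.30 ± 0.22 and its second probe set (r = 0.538) -0.87 ± 0.18 (adjusted p = 0.000147 and 0.00124). These probe sets were far dimmer, with mean signals of 155.5 and 151.6 against 14471.9 for the chosen one. The middle control probe set of EEF1A1 lay below the minimum signal (56.02). For sire 11 the chosen probe set of EEF1A1 was not called (0.10 ± 0.08, adjusted p = 0.419), whereas the 5′ control (0.29, adjusted p = 0.00747) and the second probe set (0.56, adjusted p = 0.0177) were, and the 3′ control was not (0.16, adjusted p = 0.646). The second probe set of EEF2K agreed less (r = 0.336), with a muscling difference of 0.32 ± 0.14 (adjusted p = 0.174), -0.34 ± 0.15 for sire 11 and 0.03 ± 0.17 for sire 17. That of EIF4A3 was unrelated to the first (r = 0.068) and gave 0.09 ± 0.23 in the muscling contrast (adjusted p = 0.877). With the mean over probe sets EIF4A3 was not called (-0.13, adjusted p = 0.628), nor was EIF3A (0.60, adjusted p = 0.268), whose second probe set lay below the minimum signal. For EIF4E the 3 control probe sets gave -0.18 to -0.05 in the muscling contrast, all negative like the chosen one, and 0.03, 0.08 and 0.55 for sire 11. Close copies (EEF1A1 and EEF1A2, EIF4A1 and EIF4A2, EIF1 and EIF1B, EIF3CL and EIF3C) may share hybridization, which was not measured here.

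Other genes of the pathway were read in the same fits. Of the cytosolic ribosomal proteins, 18 of 67 (26.9%) were lower in high muscling animals and none was higher, against 5.5% of all genes lower, with a median difference of -0.19 against -0.04 over all genes. In sire 17 against sires 16 and 5, 54 of 67 (80.6%) were lower, against 9.7% of all genes (median -0.31). In sire 11 against sires 2 and 7, 14 of 67 were higher and 1 lower, against 7.75% of all genes higher and 11.8% lower. Both directions together made 22.4%, against 19.6% of all genes (median 0.05). Of the re-initiation and nascent chain genes 1 of 6 was lower in high muscling, which was BTF3 (-0.18 ± 0.06, adjusted p = 0.0475). RHEB, the GTPase that activates mTORC1, was lower in high muscling (-0.27 ± 0.08, adjusted p = 0.0402), the only call among 11 genes of mTOR signalling (9.09%, near the 7.78% of all genes). TRIB3, a target of the stress response to eIF2 phosphorylation, was lower (-0.77 ± 0.24, adjusted p = 0.041), the only call among 5 genes of that response. None of the 17 aminoacyl-tRNA synthetase genes, 8 mitochondrial translation factors, 5 poly(A) binding genes and 3 termination genes was called between the muscling groups (1, 2, 1 and 0 had an unadjusted p below 0.05).

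Given the ribosomal proteins, each factor was set against their mean over animals, a relation chosen after the values were seen and given as a description without a test. The mean log2 deviation of the 67 ribosomal proteins was -0.07 (sire 11), -0.14 (sire 2) and -0.14 (sire 7) in high muscling, and -0.15 (sire 17), 0.14 (sire 16) and 0.22 (sire 5) in low muscling. EEF1B2 followed this mean most closely, with r = 0.928 and rho = 0.911 over 40 animals, 0.913 without the 2 animals farthest from the median, and 0.749 with sire means removed. EIF1AX (r = 0.832, rho = 0.762, 0.797 without the 2 animals, 0.488 with sire means removed) and EEF1A1 (0.732, 0.705, 0.702 and 0.513) also kept a positive relation within sires. EIF3K (0.655 and 0.635) and EEF1G (0.531 and 0.598) had a relation within sires about as large as over all animals. EIF4G3 (-0.694), EIF3A (-0.651), EEF2K (-0.636) and EIF4G1 (-0.632) ran against the mean, but with sire means removed the values were -0.140, -0.237, -0.106 and 0.012, so these relations rested on differences between sires. In all, 13 of 45 factors (28.9%) had r above 0.5, against 8.41% of the 6293 detected genes outside the ribosomal proteins, and with sire means removed 4 (8.89%) against 1.68%. The arrays share their scaling across genes, and all animals of a sire share that sire.

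**Figure D5:**
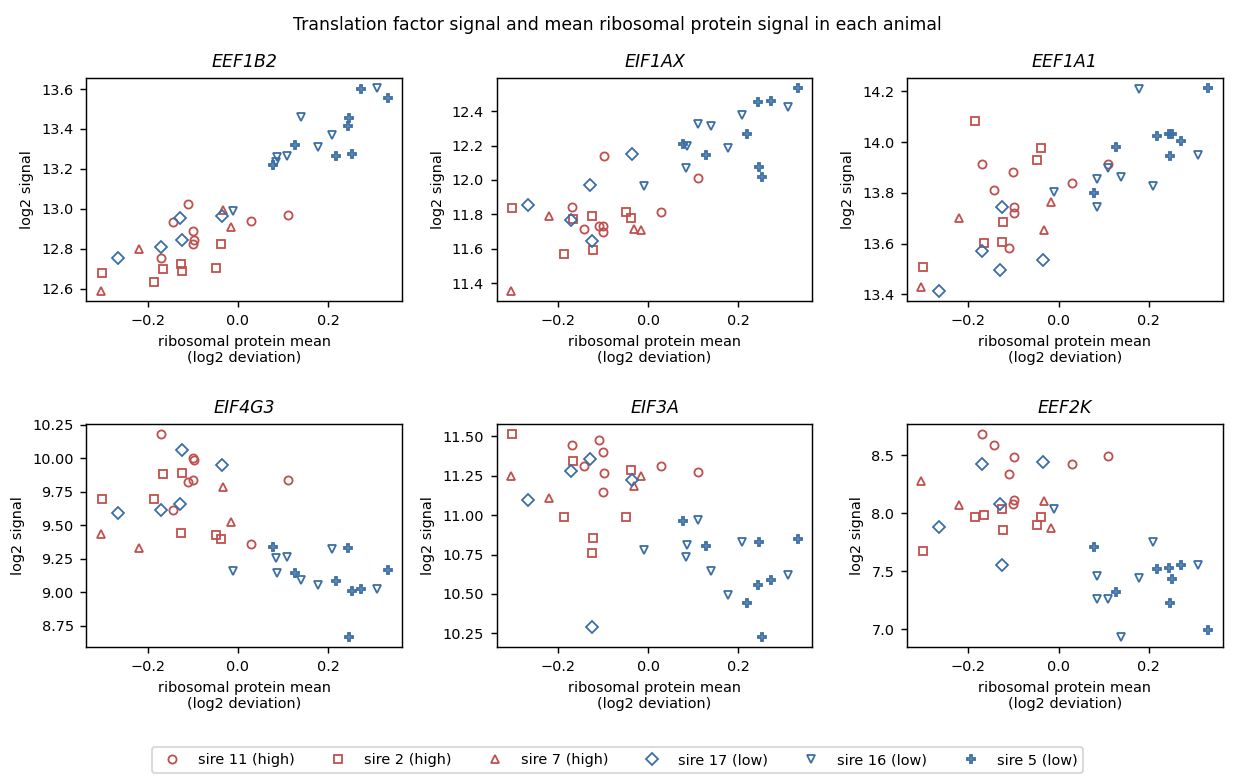
log2 signal of 6 translation factors (vertical axes) against the mean deviation of 67 ribosomal proteins on the log2 scale (horizontal axes) in each of the 40 animals; red symbols are high muscling and blue symbols low muscling sires. EEF1B2, EIF1AX and EEF1A1 rise with the ribosomal protein mean (r = 0.928, 0.832 and 0.732), and EIF4G3, EIF3A and EEF2K are lower in sires 16 and 5, where that mean is high.

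Of 12 fixed pairs of partners or close copies, the 8 with both genes detected were compared by permutation (100000 permutations, two-sided, Benjamini-Hochberg over the 8 pairs). EIF3E and EIF3H, both subunits of eIF3, were the 1 pair that passed, with r = 0.888 and rho = 0.862 over 40 animals (adjusted p = 8e-05 for each, from the smallest p the permutations allow, 1e-05). The relation was 0.847 with sire means removed (adjusted p = 8e-05) and 0.854 without the 2 animals farthest from the median of EIF3E. The other 7 pairs did not pass. They were EEF2 with EEF2K (r = -0.311, rho = -0.287, adjusted p = 0.129 and 0.149), EEF1A1 with EEF1A2 (-0.303 and -0.285, 0.129 and 0.149), EEF1B2 with EEF1G (0.294 and 0.320, 0.129 and 0.149), EEF1B2 with EEF1D, EEF1A1 with EEF2, EIF4E with EIF4EBP1 and EIF4A1 with EIF4A2 (r from -0.031 to 0.244, adjusted p from 0.206 to 0.908). Over all pairs of the 45 factors the median r was 0.071, against 0.009 over all genes, and over the 11 eIF3 subunits it was 0.191 (0.155 with sire means removed). With quantile normalization the median over the eIF3 subunits was 0.098 (0.149 with sire means removed).

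Other measures moved with the groups. Of the fibroblast markers, 4 of 6 (66.7%) were lower in high muscling (COL3A1, COL1A2, COL1A1 and DCN), against 5.5% of all genes lower. LUM (-0.52, limma adjusted p = 0.0666) and PDGFRA (0.30, adjusted p = 0.721) were not called, and PDGFRA had the opposite sign. The summed signal of the 6 was 4745.0 to 11650.3 (median 7964.2) in high muscling and 7375.6 to 21951.2 (median 11932.5) in low muscling animals. Of the smooth muscle markers TAGLN was lower (1 of 5), and none of the detected adipocyte (4), blood (2), leukocyte (4), endothelial (4) and muscle fibre (8) markers was called in this contrast. Markers also moved with the sires. In sire 11 against sires 2 and 7, COL1A1 (-0.97), LUM (-0.60), the smooth muscle genes CNN1 (-0.82) and ACTA2 (-0.34), the endothelial CDH5 (-0.50) and the muscle fibre genes DES (-0.48) and ACTA1 (-0.30) were lower (adjusted p = 0.0019 to 0.0172). In sire 17 against sires 16 and 5, LUM (-0.58), DCN (-0.40) and the endothelial PECAM1 (-0.57) were lower and MYH7, the slow myosin, was higher (0.48; adjusted p = 0.00165 to 0.0312). VWF, another endothelial marker, had a positive difference in both of these contrasts and was called in neither, although the F test among sires called it. The endothelial markers thus did not all move in the same direction. The summed fibroblast signal had medians of 8718.6 (sire 11), 7912.7 (sire 2) and 7019.6 (sire 7) in high muscling, and of 9928.4 (sire 17), 12652.8 (sire 16) and 12608.4 (sire 5) in low muscling. HBB, ALAS2, PTPRC, LEP and KDR were below the minimum signal. The spiked hybridization controls averaged 11.121 ± 0.065 in high muscling and 11.023 ± 0.094 in low muscling on the log2 scale (SD, n = 19 and 21), and with them as covariate 9 factors were called in place of 13, without EIF2S1 (-0.37), EIF4G1 (0.29), EIF3E (-0.34) and EIF4G3 (0.33), whose differences kept their sign at sizes close to those above. The 3′ minus 5′ difference of the cyclophilin control probe sets, a measure of RNA integrity and labelling, was 0.580 ± 0.156 in sire 11, against 1.365 ± 0.351 in sire 2 and 1.407 ± 0.344 in sire 7 (SD, n = 8, 7 and 4). In sires 11, 2 and 7 it was 0.366, 0.252 and 0.274 for GAPD and -0.027, 0.009 and -0.155 for actin. For EIF4E it was -0.821, -0.749 and -0.780. Sire 11 stood clearly below sires 2 and 7 in the cyclophilin pair only. The part of these cell types and of RNA integrity in the differences above was not tested.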

How the data were processed

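Total RNA of each muscle sample was hybridized to an Affymetrix bovine genome array, and the authors deposited 1 intensity (MAS5 signal) per probe set and animal, scaled so that the trimmed mean of each array is about 200. The log2 of the signal was tested as deposited. Gene symbols came from the annotation of the array. Of 24016 probe sets outside the controls, 13292 had 1 symbol, 86 had several and 10638 none; 2 of the several-symbol probe sets named a translation factor beside another gene and were left out. The minimum mean signal was the median over the probe sets. Tests used limma 3.58.1 in R 4.3.3, with sire as a random block for the muscling contrast (consensus correlation 0.135) and 1 mean per sire for contrasts within groups. That correlation was shared by all genes. For factors whose sires differed more, such as EEF1B2, EEF2K, EIF4G3 and EIF1B, the p of the muscling contrast can therefore be too small. Progeny are separate animals and the replicates of their sire, whereas the muscling contrast rests on 3 sires per group. The fits were tested on simulated data with the same sire correlation in every gene and shifts larger than those of the called factors. That test does not cover sire effects that differ between genes. Genes, lists and the rule for named genes were chosen with earlier results of these data known. That rule took up to 10 called factors per test, the 3 most and the 3 least variable, and fixed core factors; further called factors were named beside their counts. Alternatives concerned normalization, filter, floor, probe sets, covariates, block and left-out animals or sires; separate probe sets, separation of sire means, the ribosomal protein relation and the XIST covariate were chosen after seeing the data.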

Additional observations from a re-analysis of the deposited data

Results flagged for a closer look

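In 9 of 144 checks of 1 factor in 1 sire family (24 named factors), a single animal lay far from the rest of its family by Dixon's test, where chance gives about 1 in 20. The share found is near that of chance, so the animals below are listed as single values only. The lowest EIF3A signal of sire 17 was 1254.0, against 2184.3 in the nearest of the 5 animals, and the sire 17 call of EIF3A was at the threshold. The lowest EIF4A3 signal of sire 11 was 589 (nearest 730.7). The highest EEF1A1 signal of sire 16 was 18930.4 (nearest 15814.2), and the highest EEF1A2 signal of sire 2 was 235.2 (nearest 186.6). EIF1B reached 1010.8 in 1 animal of sire 5 (nearest 825.7). For EIF1 the highest signal of sire 7 was 11999.6 (nearest 11370.0) and the lowest of sire 17 was 10850.0 (nearest 11624.1). The lowest EIF4A2 signal of sire 2 was 11825.5 (nearest 13156.5), and the lowest EEF2 signal of sire 16 was 3618.5 (nearest 4706.8).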

How the results depend on the processing

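Between the muscling groups 495 genes and 13 factors were called. The counts were 308 genes with the spiked controls as covariate, 1586 without the sire block, and 0 genes and 0 factors with sire means as samples; leaving out 1 sire at a time gave 23 to 1221 genes and 0 to 17 factors. The 13 called factors kept their direction in all of these. With XIST as covariate, an alternative chosen after seeing the data, 13 factors were called. Leaving out 1 animal at a time gave 1250 to 1460 genes and 11 to 14 factors in the F test, 1069 to 1290 genes and 6 to 11 factors for sire 11, 655 to 939 genes and 8 to 11 factors for sire 17, and 0 factors for sires 2 and 7 (0 to 1 genes) and for sires 16 and 5 (0 to 3 genes). For sires 16 and 5 the 2 genes called became 1 with the stricter filter, 0 with the spiked controls and 4 with every probe set tested separately. Of the 45 factors 15 changed sign in at least 1 setting, none of them among the called, 8 by processing and 12 without a sire. The differences were 0.050 for EEF1A1, -0.102 for EIF4H and 0.020 for EIF2B3 with the mean over probe sets, 0.113 for EIF4E3 with the spiked controls, and with quantile normalization 0.046 for EIF1, 0.042 for EIF3K and -0.0098 for EIF2AK1. For EEF1G they were -0.0005 without the filter, -0.049 with the spiked controls, -0.0001 with XIST and -0.0042 without the block. Leaving out 1 sire gave -0.200 to 0.0050 for EEF1A1, -0.040 to 0.045 for EEF1G, -0.041 to 0.077 for EIF4A2, -0.063 to 0.227 for EIF2AK1, -0.119 to 0.040 for EEF1D, -0.039 to 0.077 for EEF2, -0.112 to 0.0097 for EIF2B1, -0.112 to 0.052 for EIF2B3, -0.206 to 0.058 for EIF2B4, -0.0050 to 0.132 for EIF2D, -0.145 to 0.0091 for EIF3CL and -0.187 to 0.048 for EIF4E3. Among the pairs, r changed sign with quantile normalization for EEF1B2 and EEF1G (-0.318, and -0.194 with sire means removed), EEF1B2 and EEF1D (-0.116 with sire means removed), EEF1A1 and EEF1A2 (0.037 with sire means removed, 0.193 with the mean over probe sets) and EIF4E and EIF4EBP1 (0.018, 0.055 with median centring and 0.026 with the spiked controls), and with median centring for EEF1A1 and EEF2 (-0.110 with sire means removed). EEF1B2 and EEF1G passed with the spiked controls (0.422, adjusted p = 0.0258) and EIF4A1 and EIF4A2 with quantile normalization (-0.406, adjusted p = 0.0376). The cause was not tested. No paired analysis was possible because progeny numbers are unique and each sire has progeny in 1 muscling group.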
